A study of Mus musculus with 8 samples.

Results

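Hemoglobin transcripts were described in single cells of the mouse hippocampus through 4 genes, Hba-a1 and Hba-a2 for the alpha chain and Hbb-bs and Hbb-bt for the adult beta chain. They were taken by name from the 17143 genes of the count table and had been chosen by their UMI counts in these same data, where they stood out in vessel cells. Their levels by cell class are therefore given as a description without a test. The exposed animals were 4 mice (2 females, 2 males) whose dams drank water with 32 ppm Pb-acetate from 2 weeks before mating to the end of lactation, here named Pb. They were set against 4 mice (2 females, 2 males) of dams in the control arm, here named control. Every mouse was a wildtype a/a offspring, was on Pb-free water after weaning and was killed at 5 months. Per the labels' protocols saline perfusion came before dissociation of the hippocampus, and cells were frozen and thawed before capture on a 10x Chromium; there a unique molecular identifier (UMI) marks each captured transcript. Each litter gave 1 male and 1 female, and the labels do not tie mice to litters, so mice that share a dam were treated as independent.

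Hemoglobin carries oxygen in red blood cells as a tetramer of paired alpha and beta chains, each holding a heme group. It is made in erythroid precursors, where Alas2 starts heme synthesis, and reticulocytes that have left the marrow still hold its messenger RNA. In mouse resistance arteries alpha globin protein has also been found in endothelium, beside the nitric oxide synthase encoded by Nos3 and the reductase encoded by Cyb5r3. Globin transcripts have been reported in neurons, astrocytes and oligodendrocytes of the mouse as well. Lead inhibits enzymes of heme synthesis, among them the one encoded by Alad.

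On GRCm38 with GENCODE vM21, Hba-a1 lies on chromosome 11 from 32283511 to 32284465 and Hba-a2 on chromosome 11 from 32296489 to 32297298, both on the plus strand. Hbb-bs lies on chromosome 7 from 103826534 to 103828096 and Hbb-bt on chromosome 7 from 103812524 to 103813996, both on the minus strand. The coding parts of Hba-a1 and Hba-a2 (429 bases each) differed at 1 base, and the 74 bases of Hba-a1 after the stop codon were all found in Hba-a2. The split of UMIs between both alpha genes is therefore uncertain. Hbb-bs and Hbb-bt also differed at 1 of 444 coding bases, but at 36 bases after the stop codon, with 69.4% identity there.

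The promoters are shown because the 4 genes are read together below and carry the same short motifs. They run from 250 bases before to 50 after the annotated start, as RefSeq gives them on GRCm38.p6. Capitals mark 4 motifs, searched on both strands. The first is CCAAT, the binding motif of nuclear factor Y, which reads ATTGG when it lies on the minus strand. Another, ATATAA, is the core element that places the start. The motif CACCC is bound by factors of the Klf1 family, and GATAA by those of the Gata1 family. The promoters are Hba-a1 at chr11:32283422-32283721 on the plus strand, Hbb-bs at chr7:103827879-103828178 on the minus strand and Hbb-bt at chr7:103813874-103814173 on the minus strand.
Hba-a1: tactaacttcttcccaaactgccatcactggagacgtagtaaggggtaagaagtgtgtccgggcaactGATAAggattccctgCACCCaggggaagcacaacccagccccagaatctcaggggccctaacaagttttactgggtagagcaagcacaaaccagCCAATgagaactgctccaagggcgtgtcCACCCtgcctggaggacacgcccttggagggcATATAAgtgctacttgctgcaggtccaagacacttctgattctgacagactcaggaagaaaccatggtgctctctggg
Hbb-bs: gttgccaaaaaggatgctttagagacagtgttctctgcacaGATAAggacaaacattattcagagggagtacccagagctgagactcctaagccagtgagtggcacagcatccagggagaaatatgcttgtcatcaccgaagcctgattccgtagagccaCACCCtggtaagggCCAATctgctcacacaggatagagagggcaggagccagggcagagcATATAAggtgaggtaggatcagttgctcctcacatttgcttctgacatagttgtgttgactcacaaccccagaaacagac
Hbb-bt: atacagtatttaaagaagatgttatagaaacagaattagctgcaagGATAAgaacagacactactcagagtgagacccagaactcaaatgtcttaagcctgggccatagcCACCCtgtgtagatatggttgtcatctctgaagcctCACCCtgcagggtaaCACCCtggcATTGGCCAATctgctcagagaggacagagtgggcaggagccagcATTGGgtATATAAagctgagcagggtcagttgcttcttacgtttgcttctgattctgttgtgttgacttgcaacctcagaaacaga
The Hba-a2 promoter, at chr11:32296242-32296541 on the plus strand, shared a run of 297 bases with that of Hba-a1 at an offset of 3 bases.

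Each of the 4 promoters held all 4 motifs. The ATATAA began 28 bases before the start in Hba-a1, 30 in Hbb-bs and 29 in Hbb-bt. Hba-a1 had a single CCAAT 88 bases before the start, and Hbb-bs had one 76 bases before it. Hbb-bt had 3, of which a minus-strand and a plus-strand copy stood end to end without overlap at 80 and 75 bases before the start. CACCC occurred in 2 places in Hba-a1, 1 in Hbb-bs and 3 in Hbb-bt. Of 32851 RefSeq promoters of that length, 37.4% held CCAAT, 9.82% ATATAA, 57.5% CACCC and 25.4% GATAA, and 233 (0.709%) held all 4. A match of letters is a description and not a binding site.

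The table held 5258 cells, 214 to 1191 per mouse against an aim of 3000 to 5000, and 5175 were kept after removal of cells with a high mitochondrial share and of called doublets. Kept cells per mouse ran from 211 to 1157 and their UMIs from 1749079 to 8508064. Cells were clustered without any globin gene and clusters were named from marker genes. The classes used most were Endothelial-like (1318 cells), Oligodendrocyte-like (1276), Microglia-like (1124), Pericyte-like (440) and Astrocyte-like (272). Cluster 1, of 195 cells, stayed unnamed. Of 8 erythroid markers sought, the table held Alas2 and Klf1 (Klf1 at 8 UMIs in all), and the others were not analysed here. Of the Pericyte-like class, cluster 5 carried 132 endothelial and 74.0 pericyte marker UMIs per 10000 UMIs, against 17.0 and 287 in cluster 19, so most Pericyte-like cells also held endothelial transcripts. In all, 32 cell barcodes occurred in more than 1 library and gave 91 cells. Among them 7 were in at least 4 libraries, and the deepest copy of each (27701 to 71043 UMIs) stood far above its other copies (1624 to 5976 UMIs), with 6 of these 7 deepest copies in control F1.

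Hemoglobin was spread very unequally over cells. The 4 genes gave 77137 of 37236337 UMIs (0.207%), yet the median cell had 1 hemoglobin UMI, 2151 cells (41.6%) had none and 2459 (47.5%) had 1 to 3. At the other end 72 cells had 10 or more, 19 had 100 or more and 12 had 1000 or more, with a highest value of 12078. The 3 cells with the most held 45.2% of all hemoglobin UMIs and the first 10 held 80.9%. Of these 10 cells, 7 came from Pb M1, 2 from control F1 and 1 from control F2.

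To keep this tail apart from the low level elsewhere, a cell was called hemoglobin-rich if it had at least 10 hemoglobin UMIs and if these made up at least 0.2% of its UMIs, limits chosen after the distribution was seen. By these limits 43 cells (0.831% of cells, 95% Wilson interval 0.617 to 1.12) were rich and held 70210 (91.0%) of the hemoglobin UMIs. The other 5132 cells held 6927. Such intervals cover counting error only. The rich cells nearest to the limit had 0.205%, 0.250% and 0.267% hemoglobin, and the nearest cells below it with enough UMIs had 0.130%, 0.0725% and 0.0712%. In addition 2 cells above 0.2% had too few UMIs (8 each), and 29 deep cells (9223 to 54835 UMIs) with 10 or more hemoglobin UMIs lay below 0.2%. The rich cells are a range of values, not a cell type.

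**Figure D1:**
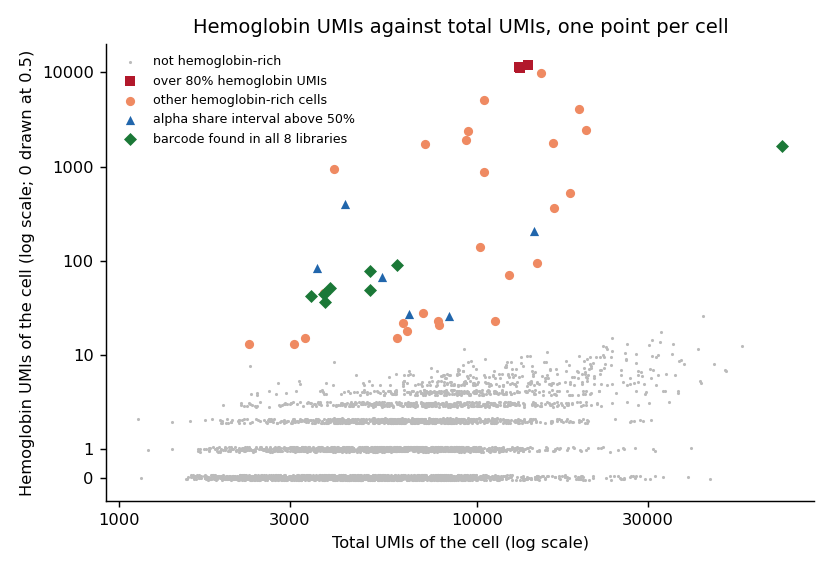
Hemoglobin UMIs of each kept cell (y, log scale, with cells at 0 drawn at 0.5) against all its UMIs (x, log scale), with a small vertical jitter. Colours mark the kinds of the 43 rich cells, and grey points are the other 5132 cells, of which most hold 0 to 3 hemoglobin UMIs.

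The rich cells were few in any class and lay mainly among vessel cells: 21 were Endothelial-like, 16 Pericyte-like, 3 in cluster 1, 2 Oligodendrocyte-like and 1 Microglia-like. Endothelial-like cells were rich in 1.59% of cases (interval 1.04 to 2.42) and Pericyte-like cells in 3.64% (2.25 to 5.82), against 0.157% (0.0430 to 0.570) of Oligodendrocyte-like and 0.0890% (0.0157 to 0.502) of Microglia-like cells. No Astrocyte-like cell of 272 was rich, which allows a share of up to 1.10% at a limit of 3 cells, or 1.39% as the upper end of the same interval. Of the 16 rich Pericyte-like cells 8 carried a single barcode that was present in all 8 libraries, and 14 of the 16 lay in cluster 5, the cluster with endothelial markers. Without that barcode 35 rich cells remained, 21 of them Endothelial-like and 8 Pericyte-like. On markers, cluster 5 scored 3.07 for pericytes and 2.55 for smooth muscle (mean log2 over all other cells). At a coarser clustering a Smooth muscle-like cluster held 14 rich cells. Such a cluster held 12 with globin genes kept, with doublets kept and with no mitochondrial filter. The Pericyte-like share of rich cells thus depends on the clustering.

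The 3 cells with the most hemoglobin were close to each other and unlike any other cell kept. They had 12078, 11464 and 11291 hemoglobin UMIs, 86.8%, 87.4% and 85.9% of their UMIs, and came from Pb M1, Pb M1 and control F2. Alas2 stood at 21, 33 and 24 UMIs in these cells. Their endothelial markers summed to 11, 13 and 9 UMIs, and their oligodendrocyte markers to 21, 23 and 20. Each lay in the unnamed cluster 1, whose top genes were the 4 hemoglobin genes, 1810041L15Rik and Alas2. That lead by hemoglobin came from these 3 cells, which held 34833 of the 35008 hemoglobin UMIs of the cluster. All its other cells together held 175.

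In the next cells hemoglobin stood beside the transcripts of a vessel cell. Leaving aside the alpha-dominated cells and the shared barcode described below, 13 more rich cells had at least 100 hemoglobin UMIs (141 to 9796, making up 1.38% to 64.8% of the cell), and 9 of them were Endothelial-like and 4 Pericyte-like. They carried 75 to 376 endothelial marker UMIs. Alas2 was detected in 11 of the 13, at 2.05 UMIs per 1000 hemoglobin UMIs, against 2.24 in the 3 cells above. The alpha genes made up 35.1% to 50.9% of their hemoglobin, a range that encloses the 39.8% to 44.2% of those 3 cells. Removal of called doublets had left these cells in and had taken out 3 cells with 5484, 5016 and 2787 hemoglobin UMIs, from Pb M2, Pb F1 and Pb F2. In the removed cells alpha made up 43.1%, 43.9% and 45.2% of hemoglobin, and Alas2 had 18, 15 and 5 UMIs.

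A small set of cells stood apart by its makeup. In 6 rich cells the 95% Wilson interval of the alpha share lay wholly above 50%. The Endothelial-like cells among them had an alpha share of 65.7% of 405 hemoglobin UMIs in control F2, 83% of 206 and 70.4% of 27 in control M1, and 81.9% of 83 and 86.6% of 67 in Pb M1. The Pericyte-like one, in control F1, had 76.9% of 26. Pooled, their 814 hemoglobin UMIs were 38.1% Hba-a1, 35.9% Hba-a2, 24.8% Hbb-bs and 1.23% Hbb-bt. Alas2 gave 1 UMI in these 6 cells, too few to compare with its rate elsewhere. Since the cells were picked for their alpha share, that share is a description, and it came from 4 mice of both groups (2 cells from Pb, 4 from control mice).

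**Figure D2:**
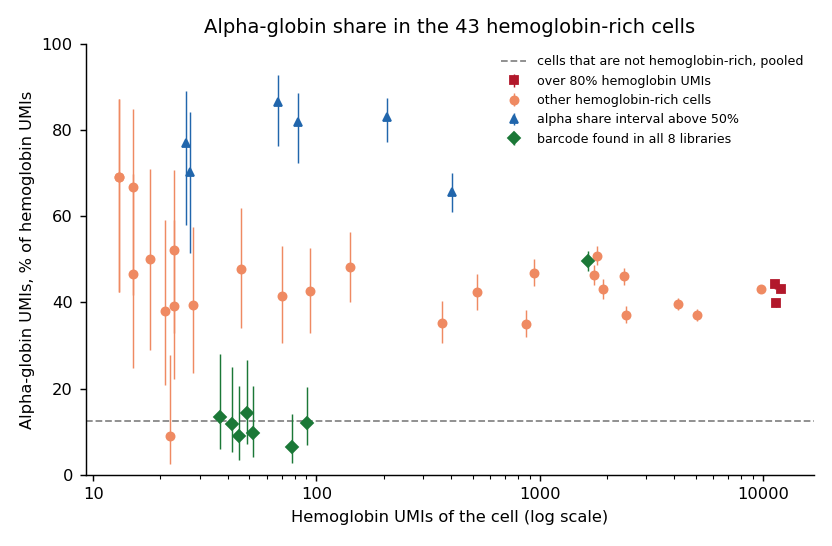
Alpha-globin UMIs as a percent of hemoglobin UMIs (y) against hemoglobin UMIs of the cell (x, log scale) for the 43 rich cells, with 95% Wilson intervals as bars, and the pooled share of the cells that are not rich (12.5%) as a dashed line. The 12 cells with 1000 or more hemoglobin UMIs sit at 37.1% to 50.9%, 6 cells have intervals above 50%, and 7 copies of 1 shared barcode lie at 6.41% to 14.3%.

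Whether the alpha-dominated cells were arterial was looked at with vessel gene lists, over the 5 that were Endothelial-like, as UMIs per 10000 UMIs that are not hemoglobin. Pooled over cells, their arterial genes summed to 5.10, against 7.96 in the other 16 rich and 13.4 in the 1297 remaining Endothelial-like cells. The median cell gave another order, with 5.59 in the 5 cells, against 6.34 in the other rich and 4.18 in the remaining cells, of which the highest reached 776. Capillary genes summed to 81.3, against 90.8 and 79.9, with a median cell at 70.0, against 93.1 and 81.0. Neither list set the 5 cells apart on both measures. The arterial markers Bmx, Sema3g and Cytl1 gave 0 UMIs in the 5 cells, against 0.438, 0.805 and 0.152 per 10000 in the remaining cells. Of those 1297 cells, 192, 336 and 20 had them. Alpl gave 4 UMIs (1.20 against 1.17 per 10000) and Gkn3 1 UMI (0.300 against 2.65). Genes of nitric oxide signalling and its globin partners, which include Nos3 and Cyb5r3, stood at 13.2, against 13 and 12. With 33335 such UMIs in the 5 cells, differences in single genes of low level were not detectable at this depth. The counts of 0 therefore do not set these cells apart. Of the 5 cells 4 lay in cluster 12 and 1 in cluster 0, and arterial genes among cells that were not rich stood at 24.5 in cluster 12 and 3.17 in cluster 0.

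The barcode found in all 8 libraries gave a rich cell in each. Its control F1 copy had 71043 UMIs, 1650 hemoglobin UMIs and an alpha share of 49.6%. The other 7 copies had 37 to 91 hemoglobin UMIs and alpha shares of 6.41% to 14.3%, a makeup near that of cells that were not rich. Alas2 was detected in each of the 8, at 7 UMIs in control F1 and 1 or 2 in the others. Whether these 8 are separate cells was not tested.

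The 4 genes differed in how far they were confined to rich cells. Hbb-bs gave 40227 UMIs and was detected in 2776 cells (53.6%), Hba-a1 gave 17256 UMIs in 580 cells (11.2%), Hba-a2 13484 UMIs in 291 cells (5.62%) and Hbb-bt 6170 UMIs in 349 cells (6.74%). Rich cells held 98.0% of the Hba-a2, 96.5% of the Hba-a1, 94.5% of the Hbb-bt and 85.8% of the Hbb-bs UMIs. In rich cells hemoglobin was 23.7% Hba-a1, 18.8% Hba-a2, 49.1% Hbb-bs and 8.31% Hbb-bt. Elsewhere it was 8.62% Hba-a1, 3.91% Hba-a2, 82.6% Hbb-bs and 4.87% Hbb-bt. The alpha share outside rich cells was thus 12.5% (11.8 to 13.3), against 42.5% in them. It was 13.8% (12.4 to 15.5) in Endothelial-like, 10.3% (8.46 to 12.6) in Pericyte-like, 12.6% (11.0 to 14.3) in Oligodendrocyte-like, 12.6% (10.9 to 14.5) in Microglia-like and 13.6% (9.60 to 18.8) in Astrocyte-like cells. The low-level hemoglobin thus had nearly the same makeup in vessel cells and in glia, and another makeup than that of the rich cells.

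**Figure D3:**
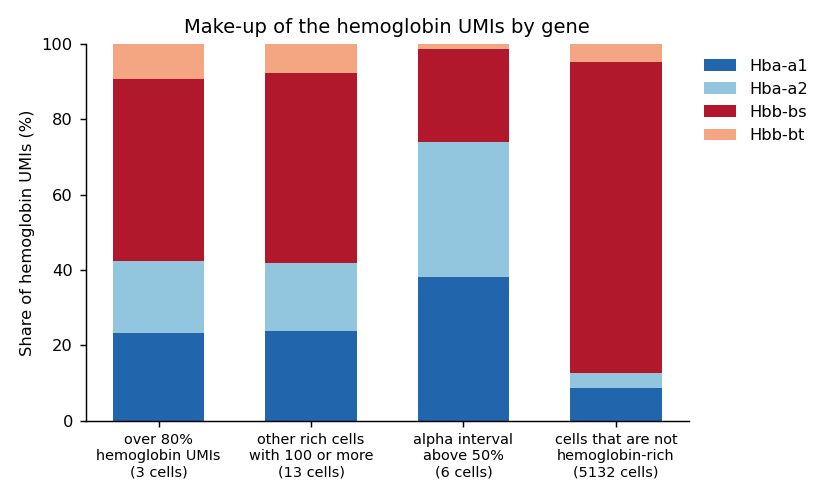
Share of each of the 4 genes in the hemoglobin UMIs (y, %) of 4 sets of cells (bars, each summing to 100%): 3 cells with over 80% hemoglobin, 13 other rich cells with at least 100 hemoglobin UMIs, 6 cells with an alpha interval above 50%, and the 5132 cells that are not rich. Hbb-bs makes up 48.3%, 50.3%, 24.8% and 82.6%.

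Co-detection followed depth of hemoglobin. All 4 genes were detected in 32 of the 43 rich cells and 3 genes in the other 11. Of the 5132 other cells 2247 (43.8%) had a single gene, 623 (12.1%) had 2, 102 had 3 and 9 (0.175%) had all 4. Hbb-bs was the sole member in 2017 cells, Hba-a1 in 114, Hbb-bt in 66 and Hba-a2 in 50. Outside rich cells, 18.0% of the cells with Hba-a2 had Hba-a1 too, and 8.38% of those with Hba-a1 had Hba-a2. Hbb-bs was found beside Hba-a1 in 75.8% of the Hba-a1 cells, a share to be read against its own detection in 2733 of these 5132 cells.

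Alas2 had most of its UMIs in rich cells. Of 215 Alas2 UMIs 160 (74.4%) lay in rich cells, which held 1.19% of all UMIs, and it was detected in 15 of the 19 cells with 100 or more hemoglobin UMIs. Outside rich cells its 55 UMIs lay in 55 cells, 1 in each. Per 1000 hemoglobin UMIs this was 7.94, against 2.28 in rich cells. Slc25a37, a mitochondrial iron importer, had 2.61% of its UMIs in rich cells and Bpgm, which makes 2,3-bisphosphoglycerate, 1.19%. The erythroid membrane and maturation list had a median of 1.48% over its 17 genes in the table (31 listed), heme synthesis 0.923% over 12 and erythroid transcription factors 0.582% over 8 (10 listed), against a median of 0.734% over all 17143 genes. Alas1, which takes the place of Alas2 outside red cells, had 1.82% and Fech, which inserts iron into heme, 2.01%. Most rich cells were vessel cells, and some vessel lists also exceeded the median over all genes. Arterial genes had a median of 2.50%, nitric oxide genes 1.97% and capillary genes 1.89%, while venous genes had 0.370%. Alas1 gave 158 UMIs per 1000000 in Endothelial-like cells, against 76.6 over all cells. The 3 cells with the most hemoglobin held 17 of the 38 Fech UMIs in rich cells, but 1 of the 52 Alas1 UMIs there. Platelet genes (7 of 10 listed) and neutrophil genes (5 of 10) had a median of 0%. Of the other globin genes, Cygb had 467 UMIs, Ngb 74 and Mb 6, with 1.71%, 1.35% and 0% in rich cells.

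By mouse, the level of all 4 genes together ranged widely. Levels are in CPM, UMIs scaled to 1000000 UMIs in all. Pb F1 had 35.7 CPM, Pb F2 had 742, Pb M1 had 6572 and Pb M2 had 279, whereas control F1 had 3708, control F2 had 3140, control M1 had 673 and control M2 had 214. Among kept cells Pb M1 was the highest and Pb F1 the lowest of all mice, so the groups overlapped. The 3 cells removed as doublets held 5016 hemoglobin UMIs in Pb F1, 2787 in Pb F2 and 5484 in Pb M2. Kept cells of these mice held 304, 2359 and 1468, so their all-cell levels depend on that removal. Without rich cells Pb F1, F2, M1 and M2 had 24.3, 159, 267 and 155 CPM, whereas control F1, F2, M1 and M2 had 314, 380, 233 and 171 CPM. Pb F1 stood far below the others here too, and Pb M1 lay within the control range. The same mice had 3, 3, 12 and 7 rich cells among the Pb animals, whereas there were 7, 5, 4 and 2 among the controls. The rich share averaged 0.708% ± 0.356 over Pb mice, against 1.43% ± 1.29 over controls (SD, n = 4 each), with overlap.

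**Figure D4:**
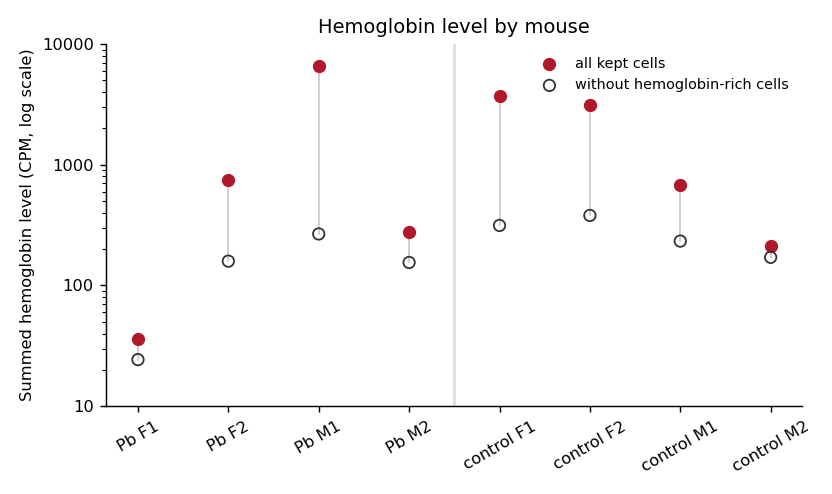
Hemoglobin level (y, CPM, log scale) in each of the 8 mice (x, Pb left of control), over all kept cells (filled) and without hemoglobin-rich cells (open). Without rich cells 7 mice lie between 155 and 380 CPM and Pb F1 at 24.3 CPM.

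By class, the mean level over 8 mice was 2849 ± 3858 CPM in Endothelial-like and 1601 ± 2119 CPM in Pericyte-like cells, against 225 ± 113 CPM in Microglia-like cells, 199 ± 95.3 CPM in Oligodendrocyte-like cells (SD, n = 8) and 227 ± 128 CPM in Astrocyte-like cells (n = 6). The SD of both vessel classes exceeded the mean. Within mice, Endothelial-like and Pericyte-like cells each lay above Microglia-like cells in 8 of 8, and Endothelial-like above Pericyte-like cells in 5 of 8. Among the glial classes, Microglia-like lay above Oligodendrocyte-like cells in 7 of 8 mice, with a median difference of 28.5 CPM (-32.0 to 78.0), while Astrocyte-like lay above Microglia-like cells in 3 of 6 and above Oligodendrocyte-like cells in 4 of 6. In Endothelial-like cells the level was 56.5, 1992, 9314 and 220 CPM in Pb F1, F2, M1 and M2, against 8680, 801, 1530 and 197 CPM in control F1, F2, M1 and M2. In Pericyte-like cells it was 84.9, 376, 5469 and 781 CPM in the Pb mice, against 4510, 553, 298 and 735 CPM in the control mice, listed alike. Pb M1 and control F1 were the highest of their groups in both classes. Without Pb M1 the means were 1925 CPM in Endothelial-like and 1048 CPM in Pericyte-like cells, and without the shared barcodes 3072 and 993 CPM. At a coarser clustering the Pericyte-like mean was 336 CPM. That class then held 114 cells, 2 of them rich, and a Smooth muscle-like cluster held 14 rich cells. The Cajal-Retzius neuron-like (162 CPM), Choroid plexus-like (136 CPM) and Oligodendrocyte precursor-like cells (180 CPM), each pooled over mice, held no rich cell.

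Outside rich cells the level in vessel cells lay close to that in other cells. Within each mouse the Endothelial-like level was 1.09 ± 0.0666 times that of all other cells (SD, n = 8; 0.991 to 1.18, above 1 in 7 of 8 mice). The same ratio was 0.941 ± 0.0760 in Pericyte-like, 0.874 ± 0.125 in Oligodendrocyte-like and 1.11 ± 0.181 in Microglia-like cells (SD, n = 8 each) and 1.11 ± 0.223 in Astrocyte-like cells (n = 6). Endothelial-like cells stood above Oligodendrocyte-like cells, the class with the lowest mean ratio, in 8 of 8 mice. Examples are Pb F2 with 170 against 165 CPM and control M1 with 255 against 194 CPM. Against Microglia-like cells the order changed between mice, with 26.3 against 33.6 CPM in Pb F1 and 197 against 166 CPM in control M2. Pb F1 was the lowest mouse in each of these 5 classes, at 17.3 to 34.3 CPM.

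**Figure D5:**
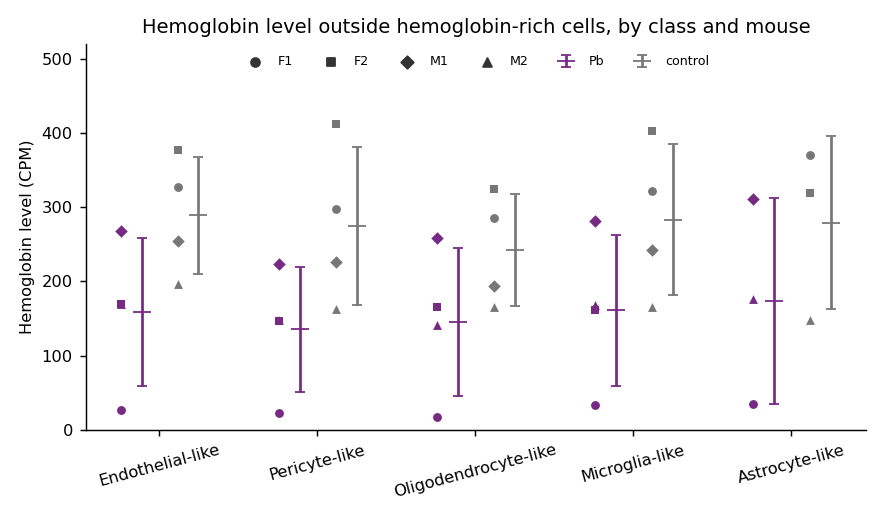
Hemoglobin level outside hemoglobin-rich cells (y, CPM) in 5 cell classes (x), each point 1 mouse with Pb left of control in each class. The classes cover like ranges, and Pb F1 is the lowest point of each.

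Detection of a hemoglobin UMI followed the depth of the cell. At least 1 was found in 62.8% of Endothelial-like cells (median depth 5273 UMIs), 70.0% of Pericyte-like (8788), 57.2% of Oligodendrocyte-like (6996), 55.5% of Microglia-like (5688) and 46.3% of Astrocyte-like cells (3059). With each cell thinned to 1500 UMIs the mean share over mice was 29.7% ± 13.7, 30.4% ± 13.7, 26.4% ± 13.9 and 28.0% ± 13.5 in the first 4 of these classes (SD, n = 8) and 27.8% ± 18.4 in Astrocyte-like cells (n = 6). Microglia-like cells were taken as the class that should lack these transcripts. Within mice the thinned share of Endothelial-like cells was above theirs in 5 of 8 mice, with a median difference of 1.08 percentage points (-1.30 to 5.70), and that of Pericyte-like cells in 6 of 8, with a median of 1.54 (-2.40 to 15.8). Among cells that were not rich, detection went from 30.8% in cells of 1000 to 2500 UMIs to 79.1% in cells of 10000 or more, while their level was 226 and 184 CPM. Whether free RNA gave these UMIs was not tested.

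Exposure was then compared on UMIs summed per mouse with edgeR, sex being a covariate. No hemoglobin gene passed an adjusted p of 0.05 in all cells or in any of 6 classes, and neither did any other gene: edgeR called 0% of genes in each of the 7 fits. At an unadjusted p under 0.05 it gave 631 genes in all cells, 387 in Endothelial-like, 263 in Pericyte-like, 320 in Oligodendrocyte-like, 332 in Microglia-like, 135 in Astrocyte-like and 33 in Cajal-Retzius neuron-like cells. DESeq2 called 19, 1, 1, 1, 9, 0 and 0 genes in the same order, none of them a hemoglobin gene. After the filter on low counts the 4 genes could be tested in all cells, Endothelial-like and Pericyte-like cells, Hba-a1 and Hbb-bs in Oligodendrocyte-like and Microglia-like cells, and Hbb-bs in Astrocyte-like and Cajal-Retzius neuron-like cells. Over these 18 fits the log2 fold change ran from -1.36 to 0.30, and the smallest adjusted p was 0.837.

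The beta gene Hbb-bs, the most abundant of the 4, had 24.8, 434, 3359 and 192 CPM in Pb F1, F2, M1 and M2, against 1749, 1619, 443 and 171 CPM in control F1, F2, M1 and M2. Both groups held high and low mice and overlapped. Its log2 fold change was -0.19 (SE 1.74, edgeR adjusted p = 0.999). The other beta gene, Hbb-bt, had 2.0, 31.8, 571 and 16.8 CPM in the Pb mice, against 262, 242, 16.6 and 9.28 CPM in the control mice, with a log2 fold change of 0.17 (SE 2.85). The alpha gene Hba-a1 had 4.82, 162, 1515 and 41.7 CPM in the Pb mice, against 894, 681, 113 and 19.1 CPM in the control mice, with a log2 fold change of 0.12 (SE 2.50). Hba-a2 followed it with 4.11, 114, 1126 and 28.9 CPM in the Pb mice, against 803, 598, 101 and 14.0 CPM in the control mice, and a log2 fold change of -0.15 (SE 2.53). These standard errors, over 1.7 on the log2 scale, allow large differences in either direction. The values moved with single mice: without Pb M1 they were -2.19 for Hba-a1 and -2.24 for Hbb-bt, which turned in sign, and -2.53 for Hba-a2 and -1.95 for Hbb-bs, which did not. Without Pb F1 the signs of Hba-a2 (1.76) and Hbb-bs (1.19) turned, and those of Hba-a1 (2.01) and Hbb-bt (2.56) did not.

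In Endothelial-like cells the log2 fold changes were 0.27 (SE 1.51) for Hba-a1, -0.16 (SE 1.52) for Hba-a2, 0.09 (SE 1.32) for Hbb-bs and 0.22 (SE 1.52) for Hbb-bt. In Pericyte-like cells they were -0.37 (SE 1.60), -0.26 (SE 1.51), -0.27 (SE 1.01) and 0.30 (SE 0.99) in the same order. Without barcodes found in several libraries the Pericyte-like values of Hba-a1, Hba-a2 and Hbb-bs were 2.38, 2.50 and 0.63, again without a call. Single mice carried these values: Hbb-bs in Endothelial-like cells had 4766 CPM in Pb M1 and 3913 CPM in control F1, while the other Pb mice had 31.5 to 1038 CPM and the other control mice 143 to 890 CPM.

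Outside the vessels the mean level of Hbb-bs in Pb mice lay below that in control mice, with no call. This was not particular to those classes, since vessel cells showed it too once rich cells were left out. There Hbb-bs averaged 128 ± 80.7 CPM in Pb, against 236 ± 72.9 CPM in control Endothelial-like cells (SD, n = 4 each). In Pericyte-like cells it averaged 112 ± 68.1 against 236 ± 88.9 CPM, and the groups overlapped in both classes. Hbb-bs in Microglia-like cells had 25.1, 129, 225 and 148 CPM in Pb F1, F2, M1 and M2, against 253, 349, 227 and 142 CPM in control F1, F2, M1 and M2. Its log2 fold change there was -0.99 (SE 0.43, edgeR adjusted p = 1.000). In Oligodendrocyte-like cells it had 13.4, 167, 208 and 121 CPM in the Pb mice, against 237, 269, 176 and 137 CPM in the control mice (log2 fold change -0.79, SE 0.52). In Cajal-Retzius neuron-like cells, tested with 3 mice per group, the Pb mice had 17.0, 134 and 115 CPM and the control mice 302, 153 and 157 CPM, without overlap (log2 fold change -1.36, SE 0.55, edgeR adjusted p = 0.999); this fit and that in Microglia-like cells were the 2 of 18 with an unadjusted p under 0.05, a limit met by 2.0% of all genes tested in Cajal-Retzius neuron-like and 4.39% in Microglia-like cells. Pb M1 was not in that fit, since it had 9 such cells, and its 203 CPM would make the groups overlap. Over all cells that were not rich, the 4 genes together averaged 151 ± 99.2 CPM over Pb mice, against 275 ± 91.2 CPM over controls (SD, n = 4 each). The alpha share of that low-level hemoglobin overlapped between the groups in all cells and in the other tested classes, but was 10.5% to 16.7% in Pb and 7.53% to 8.99% in control Pericyte-like cells, on 3 to 25 alpha UMIs per mouse. This difference was not tested.

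Sex and its interplay with exposure were fitted in the same way. For male over female mice no hemoglobin gene passed in 18 fits, with log2 fold changes of -0.28 to 1.22, where edgeR called 0.0396% of genes in all cells, 0.103% in Endothelial-like, 0.0707% in Pericyte-like, 0.0525% in Oligodendrocyte-like, 0.0529% in Microglia-like, 0.219% in Astrocyte-like and 0.0607% in Cajal-Retzius neuron-like cells. The product of exposure and sex, positive where the Pb minus control difference was greater in males, was above 0 in 18 of 18 fits (log2 1.74 to 9.16). Unadjusted edgeR p-values were under 0.05 in 16 of the 18, at a limit met by 2.81% of all genes tested in all cells, 3.19% in Endothelial-like, 3.12% in Pericyte-like, 2.65% in Oligodendrocyte-like, 3.36% in Microglia-like, 4.73% in Astrocyte-like and 3.03% in Cajal-Retzius neuron-like cells. No adjusted p was under 0.05, the smallest being 0.177 for Hbb-bs in Astrocyte-like cells, where 0.0875% of genes were called. In the other 6 fits 0% were called. In Pericyte-like cells Hbb-bt had a product term of 8.76 (SE 1.59, edgeR adjusted p = 0.194) and Hba-a1 one of 9.05 (SE 1.75, edgeR adjusted p = 0.239). Behind these terms stood 2 mice per sex and group: all-cell levels were 6572 and 279 CPM in Pb males and 35.7 and 742 CPM in Pb females, against 673 and 214 CPM in control males and 3708 and 3140 CPM in control females. The levels of Pb F1, Pb F2 and Pb M2 leave out the 3 hemoglobin-high cells removed as doublets. The 18 fits share mice and cells and are not independent of each other.

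Genes around hemoglobin were taken as lists, none of whose members passed in the exposure comparison. In all cells 12 of 12 heme synthesis genes were tested, with a median log2 fold change of 0.06 against -0.02 over all 12640 genes tested and none at an unadjusted p under 0.05, a limit met by 4.99% of those genes. Alas2 had -0.59 (SE 1.22), Alad -0.19 (SE 0.14) and Fech 0.09 (SE 0.20). Of 14 genes for the clearance of hemoglobin and heme, 9 were tested (median 0.12, 2 under that limit). Hmox1, which encodes heme oxygenase 1, had 0.46 (SE 0.23) in all cells and 0.79 (SE 0.30) in Pericyte-like cells, and Slc40a1, the iron exporter ferroportin, -0.40 (SE 0.19) in all cells. The erythroid membrane and maturation list had 14 of 31 tested (median -0.05, 4 under that limit). Tfrc, the transferrin receptor, had -0.43 (SE 0.20) in all cells and -0.55 (SE 0.16, edgeR adjusted p = 0.935) in Pericyte-like cells. Erythroid transcription factors had 6 of 10 tested (median -0.07), platelet genes 4 of 10 (median -0.40) and the other globins 1 of 9 (-0.11). In Endothelial-like cells the nitric oxide list had 8 of 11 tested (median -0.02, 1 under the limit, which 4.42% of all genes tested there met), with Nos3 at -0.17 (SE 0.13) and Cyb5r3 at -0.11 (SE 0.12). There the medians were 0.06 for 12 arterial, -0.07 for 10 capillary and -0.15 for 7 venous genes, against -0.01 over all genes tested.

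Genes most like hemoglobin were sought over the 23 clusters, as Pearson correlations of log2(CPM + 5) with the summed hemoglobin level, globin genes left out. Alas2 was first of 13780 genes with r = 0.90, followed by Pik3r3 and Slc1a1 (0.78 each), Parvb and Prom1 (0.70 each), Mpzl1 and Pomp (0.65 each) and Adamtsl2 (0.64). Of the Slc1a1 UMIs 19 of 1527, and of the Pomp UMIs 135 of 11405, lay in rich cells. The clusters share libraries and cluster 1 holds 3 of the richest cells, so these values are a description over 23 points. Over the 1318 Endothelial-like cells the strongest correlation with hemoglobin, positive or negative, was -0.12 (Clcn3), too weak in such sparse counts to single out a gene.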

How the data were processed

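The authors deposited 1 table of raw UMI counts per gene and cell for all 8 mice; that the values are counts is seen from whole numbers with differing totals. The submitters' processing notes name Cell Ranger, Seurat and the build mm10. Neither their roles nor the counting of reads matching several hemoglobin genes was given there. Each deposited cell had at least 999 genes and 1137 UMIs. Cells with over 20% mitochondrial UMIs (53) and Scrublet doublets (33, or 0.628%) were removed, 83 in all. Scanpy 1.11.5 clustered the cells on 2000 variable genes without globin, sex-linked or mitochondrial genes (30 components, 15 neighbours, Leiden resolution 1). Clusters were named from marker lists. For each mouse and class UMI counts were added up (at least 10 cells, at least 3 mice per group) and tested with edgeR 4.0.16 (quasi-likelihood, TMM, filterByExpr), Benjamini-Hochberg over all genes of a fit. SE is the fold change divided by the square root of the F statistic. Simulated counts were drawn with the same assumed dispersion for every gene, which was not estimated from these mice. Apart from the set changes every mouse had the same mean profile. The rates of calls below hold for that setting and not for the spread among these mice. On simulated data in all cells, 62 of 100 genes changed 2-fold and 95 of 100 changed 4-fold were called. False calls there numbered 7 among 12799 genes. In Endothelial-like cells 37 and 82 were called, with 6 false calls among 8785 genes. In Microglia-like cells 46 and 80 were called, with 8 false calls among 7576 genes. The rate for the hemoglobin genes, whose SE in all cells was 1.74 to 2.85, was not tested.

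CPM is the UMI count per 1000000 UMIs of the mouse or class. The 4 genes, the lists and the named genes (every hemoglobin gene, list members with high levels, and the genes most correlated with hemoglobin) were chosen with earlier results of these data known. The limits for hemoglobin-rich cells, and the alternatives without them, without shared barcodes and with stricter limits, were chosen after seeing the data. Other alternatives were DESeq2 1.42.0, other scalings, no filter on low counts, other cell filters and clusterings, thinning depths, no sex covariate, the replicate number as a block, and each mouse left out. Some results on single genes are not reported here.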

Additional observations from a re-analysis of the deposited data

Results flagged for a closer look

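In 28 groups of 4 mice, the mouse farthest from the others was compared with the range of its group (Dixon's test at 95%). In 8 of them 1 mouse stood apart. A chance rate of about 1 in 20 groups holds for normally distributed values. The CPM values were taken without logs and the flagged levels were carried by few cells, so that rate need not hold here. The groups checked also share mice and cells. Pb M1 stood apart over all cells, with 6572 CPM of hemoglobin, 1515 CPM of Hba-a1, 1126 CPM of Hba-a2, 3359 CPM of Hbb-bs and 571 CPM of Hbb-bt, and again in Pericyte-like cells with 5469 CPM of hemoglobin. Control F1 stood apart in Endothelial-like cells with 8680 CPM and in Pericyte-like cells with 4510 CPM. In data outside the comparisons, 3 cells called doublets and removed held 5484 (Pb M2), 5016 (Pb F1) and 2787 (Pb F2) hemoglobin UMIs, while the other removed cells held at most 10.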

How the results depend on the processing

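In the exposure comparison a hemoglobin gene passed the threshold in 1 setting alone, without the filter on low counts. There Hbb-bs passed in Microglia-like (log2 -0.96, edgeR adjusted p = 4.46e-05) and Oligodendrocyte-like cells (-0.76, edgeR adjusted p = 6.33e-04), 2 of 18 fits. Other genes passed there too in both classes, with counts given below. Over all alternatives run, the sign turned at least once for 15 of the 18 values, and the cause was not tested. It did not turn for Hbb-bs in Microglia-like (-1.41 to -0.42), Oligodendrocyte-like (-1.21 to -0.19) and Cajal-Retzius neuron-like cells (-2.24 to -0.49).

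Leaving out 1 mouse at a time, log2 fold changes in all cells ran from -2.19 to 2.01 for Hba-a1, -2.53 to 1.76 for Hba-a2, -1.95 to 1.19 for Hbb-bs and -2.24 to 2.56 for Hbb-bt. In Endothelial-like cells they ran from -2.22 to 1.87, -2.83 to 1.55, -1.92 to 1.40 and -2.91 to 2.66, and in Pericyte-like cells from -2.33 to 2.79, -2.04 to 3.18, -1.49 to 0.86 and -1.38 to 2.25, in the same order. Hba-a1 ran from -1.13 to 0.08 in Oligodendrocyte-like and -1.09 to 0.04 in Microglia-like cells, and Hbb-bs from -2.96 to 0.57 in Astrocyte-like cells.

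Without rich cells the sign turned for Hba-a1 (-0.67) and Hbb-bt (-0.69) in all cells and for Hba-a1 (-0.75), Hbb-bs (-0.96) and Hbb-bt (-0.70) in Endothelial-like cells. Without shared barcodes it turned for Hbb-bs in Endothelial-like (-0.02) and for Hba-a1 (2.38), Hba-a2 (2.50) and Hbb-bs (0.63) in Pericyte-like cells. With doublets kept it turned for Hba-a2 (0.85) and Hbb-bs (0.55) in all cells, Hba-a2 in Endothelial-like (1.19) and Hbb-bs in Pericyte-like cells (0.69). Pericyte-like Hbb-bs turned with no mitochondrial filter (0.53) and with globin genes kept in the clustering (0.58), as did Endothelial-like Hba-a2 (0.01), and Pericyte-like Hbb-bt turned in DESeq2 (-1.04). Without the sex covariate Hba-a1 in all cells was -0.02, and Hba-a2 (0.07) and Hbb-bs (0.17) turned in Pericyte-like cells.

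Pb and control mice with the same replicate number did not deviate together (correlations -0.36 to 0.01 over 4 pairs, 0 of which matched best with its own number). A check on 4 pairs between groups cannot exclude that mice share a litter. With that number as a block, Hba-a1 (-0.71) and Hbb-bt (-1.17) turned in all cells, Hba-a2 in Endothelial-like (0.13) and Hba-a1 (0.03) and Hba-a2 (0.20) in Pericyte-like cells, and 8 genes passed in Astrocyte-like and 3 in Cajal-Retzius neuron-like cells.

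Counts of genes past the threshold, 0 in each unit, became 19, 1, 1, 1 and 9 with DESeq2 in all cells, Endothelial-like, Pericyte-like, Oligodendrocyte-like and Microglia-like cells. With no filter on low counts they became 40, 10, 25, 52, 5 and 1 in Endothelial-like, Pericyte-like, Oligodendrocyte-like, Microglia-like, Astrocyte-like and Cajal-Retzius neuron-like cells. Leaving out 1 mouse gave 0 to 2, 0 to 1, 0 to 3, 0 to 7 and 0 to 11 in the first 5 of these classes. For the product of exposure and sex, hemoglobin fits past the threshold numbered 1 with DESeq2, 13 with no filter on low counts, 2 with doublets kept and 1 with globin genes kept in the clustering. Over all genes DESeq2 called 4 for this term in all cells, 2 in Pericyte-like, 1 in Astrocyte-like and 0 in the other tested classes. For the other settings the count over all genes is not reported here, so the hemoglobin counts lack that background.

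At 3000 UMIs per cell the share of cells with a hemoglobin UMI was 44.9% over all cells, 46.3% in Endothelial-like, 44.1% in Pericyte-like, 42.8% in Oligodendrocyte-like and 46.2% in Microglia-like cells. Limits of 20 UMIs and 0.5% gave 31 rich cells with 90.7% of hemoglobin UMIs. That share was 92.3% with doublets kept and 81.6% (without Pb M1) to 91.9% leaving out 1 mouse. Mean levels were 6392 CPM in Endothelial-like and 894 CPM in Pericyte-like cells with doublets kept. In that clustering 12 rich cells lay in a Smooth muscle-like cluster, so the Pericyte-like class was not the same set of cells.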
